A study of Homo sapiens with 42 samples.

Results

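RPMI-8226, an established human line, comes from multiple myeloma, a tumour of antibody-secreting plasma cells. What changed in these cells between 24 h and 48 h of the experiment was read in the line carrying a control shRNA that had not been switched on: 3 arrays labelled 48 h were set against 3 labelled 24 h, both without doxycycline, 6 of the 42 arrays in all. The arrays were chosen by their titles, and 3 arrays of the same line at 32 h, also without doxycycline, give the point between. The study measured mRNA by Affymetrix U133 Plus 2 array, each RNA sample on its own array, here and in a second line whose shRNA targets BMI1, which belongs to the Polycomb repressive complex PRC1. Both hairpins were inducible, and 100 ng/ml doxycycline was the inducer. Every group was RPMI-8226 stably infected with its hairpin construct and was kept in a medium with 1% serum. Labels give time as hours after induction, also for arrays that had no doxycycline. They do not say whether a line was 1 clone, or whether arrays of a group came from separate cultures, so each p-value reflects array-to-array spread alone, which may be technical. Groups used for comparison were the same line at 0 h without doxycycline, the same line at 24 h and 48 h with doxycycline, and the BMI1-shRNA line at 24 h and 48 h without doxycycline, 3 arrays each.

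A cultured myeloma line draws nutrients from its medium and keeps much of the programme of a plasma cell. Such cells depend on the transcription factor IRF4 and on a high rate of amino acid use for protein synthesis. When amino acids run short or protein folding is strained, the kinases GCN2 and PERK phosphorylate the initiation factor eIF2 alpha, which lowers translation in general and raises translation of ATF4, a transcription factor that switches on genes for amino acid synthesis, import and loading onto transfer RNA. Cholesterol is controlled by opposing programmes, the SREBP factors for synthesis and uptake and the LXR receptors for efflux. These statements are background and not results of the arrays.

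Signals are the deposited MAS5 values, a linear brightness per probe set, and each array had been scaled to the same trimmed mean. A gene is its brightest retained probe set, and a log2 fold change is the mean difference of log2(signal + 5.4) given with its standard error from limma, a linear model fitted over all 14 groups. A gene is called where its p, adjusted by the Benjamini-Hochberg method over 14704 genes, is under 0.05. Plasma cell genes were bright on these arrays: at 24 h JCHAIN, the joining chain of secreted antibody, read 9038 ± 342 and TNFRSF17, the receptor BCMA, 1318 ± 33.9 (SD, n = 3 each). SLAMF7, also a plasma cell marker, reached at most 11.6. Of the earlier B cell markers MS4A1 reached at most 26.9 and PAX5 read 29.2 to 60.7, on arrays with medians of 17.4 to 22.5. The BMI1 probe set, which also matches a readthrough transcript, read 1231 ± 25.5 at 24 h and 1159 ± 55.4 at 48 h and was not tested. Pairs of 24 h arrays correlated at r of 0.980 to 0.981, pairs of 48 h arrays at 0.968 to 0.975, and pairs of one of each at 0.972 to 0.979.

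Between 24 h and 48 h, 124 genes of 14704 changed (0.843%), 79 upward (0.537%) and 45 downward (0.306%), and 1794 (12.2%) had an unadjusted p under 0.05. The changes were small: the median absolute log2 fold change of the called genes was 0.36, against 0.13 over all genes, and 3 called genes changed at least 2-fold. Those 3, MATK, COL22A1 and LOC100507351, had mean signals under 50. The median log2 fold change of all genes was 0.02. For 123 of the 124 the 3 arrays of one time did not overlap the 3 of the other. In 1 gene, MATK, they overlapped. The 15 highest and 15 lowest genes named below were chosen with groups apart, so that trait adds no support to their calls. Over all genes such groups stood apart for 1457 that were higher at 48 h (9.91%) and 1159 that were lower (7.88%). Lists of 8 markers each for T cells, monocytes, erythroid cells, fibroblasts and epithelium had 4, 4, 4, 4 and 6 members tested, and none was called. The fibroblast list's summed signal was 174.6 to 179.1 at 24 h and 192.9 to 231.7 at 48 h, with COL3A1, LUM, PDGFRA and FAP below the array median on all 6 arrays; its part in the results was not tested. The other 4 sums overlapped between the times. As these are bulk RNA samples, fewer cells of a kind and less RNA per cell cannot be told apart.

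The count moved with single arrays. Without 48 h replicate 3 it was 36, and without 24 h replicate 1, 2 or 3 it was 55, 49 or 58. Each call carried through all 6 such fits for 25 genes, among them CTH, IRF4, POU2AF1, ABCG1, MYLIP, AARS1, SPP1 and ID3. These fits still drew each gene's spread from all 14 groups. When only the 6 arrays were fitted, most calls were lost, those of ABCG1, AARS1 and ID3 among them. Of the genes named here, POU2AF1, MYLIP and SPP1 lost their calls when a gene was taken as the mean of its probe sets.

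**Figure D1:**
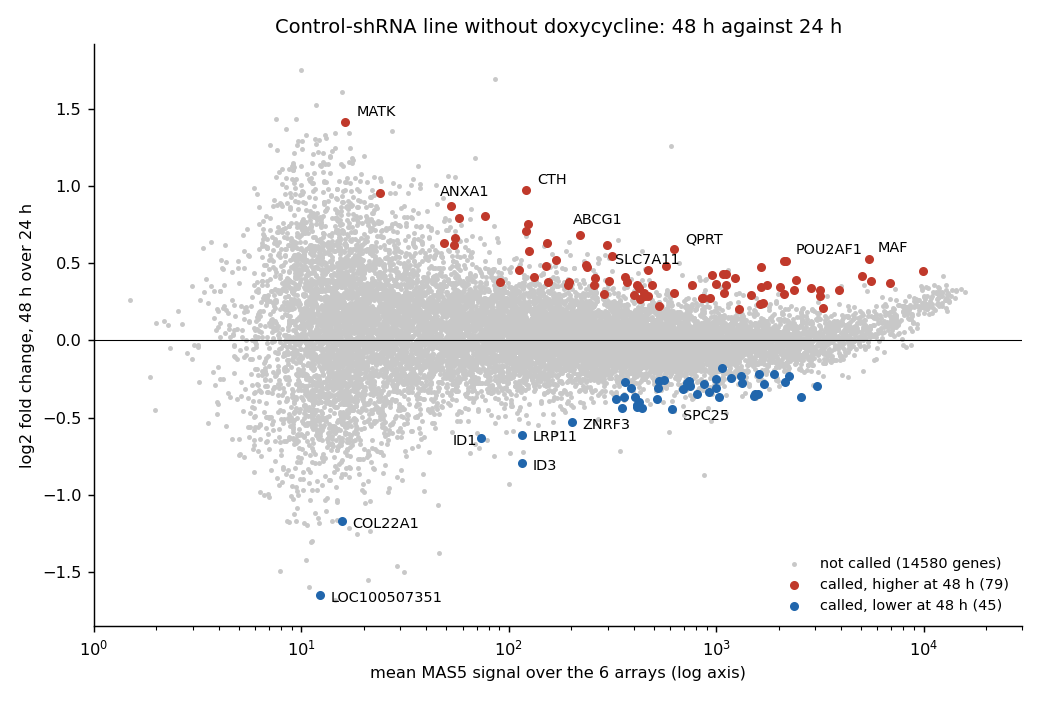
Each point is a gene of the undosed control-shRNA line, with the mean signal over its 6 arrays on a log x axis and its log2 fold change, 48 h over 24 h, on the y axis; the 79 called rises are red and the 45 called falls blue. The called changes lie within 1 log2 unit except for 3 dim genes, and the cloud of all genes bends upward at the brightest signals, where 258 of 272 genes with a mean signal of at least 5000 had positive values.

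That upward bend bears on bright genes. Among the 272 genes with a mean signal of at least 5000 the median log2 fold change was 0.17, and quantile normalization, which gives every array the same distribution, moved it to -0.01. The same genes had a median of 0.03 in the dosed control line and -0.02 in the BMI1-shRNA line. Called rises of this brightness were ASS1, ITGB7, MAF, MYC and PRSS2, and all 5 kept their calls after quantile normalization, with MYC at 0.23 in place of 0.37 and MAF at 0.41 in place of 0.52.

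The strongest rise outside the dim genes was in an enzyme of cysteine synthesis. CTH, which releases cysteine from cystathionine, read 73.9, 83.1 and 83.4 on the 24 h arrays and 169, 158 and 161 on the 48 h arrays, a log2 change of 0.98 ± 0.16 or 1.97-fold (limma adjusted p = 0.000873). All 3 arrays of 48 h stood far above all 3 of 24 h. At 32 h CTH read 75.1, 91.3 and 76.9 and at 0 h 72.9, 75.1 and 89.9, so every array of 32 h and of 0 h lay below every array of 48 h.

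CTH was 1 of 9 genes of the ATF4 and amino acid list that rose, out of 38 tested (40 in the list), and none fell. Of all genes 0.537% rose. The list was chosen with earlier results of these data known. In this list 34 of 38 members (89.5%) had positive values, beside 54.0% of all genes. The arrays stood apart with 48 h higher for 24 members, beside 9.91% of all genes. The median log2 fold change was 0.22 beside 0.02 for all genes. Genes for amino acid synthesis made up the largest share, 5 of 10. PHGDH, the first enzyme of serine synthesis, read 370.2, 361 and 455 at 24 h and 561, 508 and 559.6 at 48 h (0.46 ± 0.09, limma adjusted p = 0.0104), with no overlap. ASNS, which makes asparagine, read 1529.9, 1534 and 1535 against 2227, 1596 and 2129 (0.36 ± 0.09, limma adjusted p = 0.0329). Its 48 h replicate 2 lay just above the 24 h arrays while the other two were far higher. SHMT2, the mitochondrial enzyme that passes carbon from serine to folate, rose by 0.34 ± 0.08, and CBS, which acts just before CTH, by 0.27 ± 0.07. As the mean of its probe sets CBS was not called.

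Of 9 transporters in the list 2 rose. SLC7A11, the cystine importer, read 209.6, 258 and 235 at 24 h and 334, 433 and 327 at 48 h (0.62 ± 0.14, limma adjusted p = 0.0195). SLC38A2, an importer of small neutral amino acids, rose by 0.21 ± 0.05 (adjusted p = 0.0239 in limma). In both genes the lowest 48 h array was above the highest 24 h array. Among 7 transfer RNA synthetases 2 rose, AARS1 for alanine with 2143, 2089 and 2086 against 2607, 2542 and 3172 (0.39 ± 0.06, limma adjusted p = 0.000472), and GARS1 for glycine with 0.32 ± 0.07. Each of the 3 AARS1 arrays at 48 h was above all 3 at 24 h, replicate 3 by the widest margin.

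None of the 12 regulators in the list passed with the values as scaled by the authors. ATF4 itself had 0.35 ± 0.10 on the log2 scale (limma adjusted p = 0.0958); it was singled out after its values were seen. ATF3, a stress-induced factor, read 78.9, 98.7 and 101 against 133, 109.7 and 153 (0.48 ± 0.13, adjusted p = 0.0531 in limma), and DDIT4, an inhibitor of mTORC1, 740.5, 618 and 782 against 1082, 884 and 879 (0.41 ± 0.11, limma adjusted p = 0.057). In both the groups stood apart with 48 h higher. DDIT4 passed after quantile normalization, at 0.42 (limma adjusted p = 0.0356, in a range of 0.0108 to 0.335 over its alternatives). CHAC1, a glutathione-degrading enzyme, was dim and had 1.01 ± 0.43 (limma adjusted p = 0.313). ATF5 had the opposite sign, -0.59 ± 0.17 (limma adjusted p = 0.0863), and DDIT3, the factor CHOP, overlapped at 57.6, 53.4 and 63.8 against 87.6, 73.4 and 52.7.

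CTH and AARS1 kept their calls with any 1 array left out. The list's count of 9 fell to 5 without 24 h replicate 1 or 48 h replicate 1 and to 3 without 24 h replicate 2, 24 h replicate 3 or 48 h replicate 3, while its median ran from 0.20 to 0.24. Fitted on the 6 arrays alone, it was 1.

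**Figure D2:**
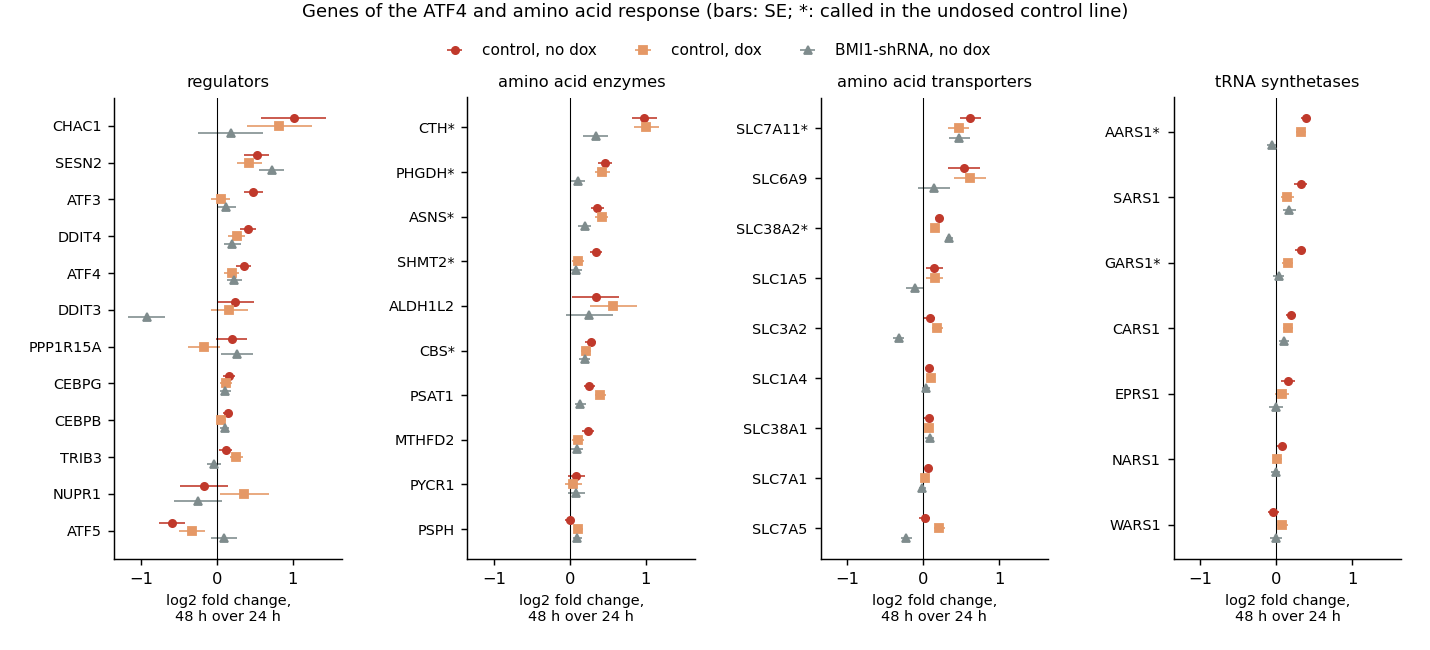
Log2 fold changes from 24 h to 48 h (x axis) of the 38 tested genes of the ATF4 and amino acid list, split by role, with SE bars; circles are the undosed control line, squares the dosed control line and triangles the undosed BMI1-shRNA line, and asterisks mark genes called in the undosed control line. CTH has values near 1 in both sets of control-line arrays and 0.34 in the BMI1-shRNA line.

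ATF4 binds as a dimer to a composite element whose core can be written TGATGNAAN. This motif was searched on both strands in the RefSeq promoter entries (GRCh38.p14), which run from 250 bases before to 50 after each start. It occurred in 4.45% of 27305 genes with an entry and in 3.61% of 35116 promoters. Of the 9 genes that rose, 7 had an entry and 3 of these held it, ASNS, AARS1 and GARS1. Of the 32 tested list members with an entry 13 held it, and the list had been drawn up from known ATF4 targets. The stretches around the matches in these called genes are printed 5′ to 3′ on the gene's strand, with the match in capitals; in GARS1 and AARS1 the match is on the other strand.
ASNS: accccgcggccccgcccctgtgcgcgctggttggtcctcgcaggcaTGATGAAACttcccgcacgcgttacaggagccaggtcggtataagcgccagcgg
AARS1: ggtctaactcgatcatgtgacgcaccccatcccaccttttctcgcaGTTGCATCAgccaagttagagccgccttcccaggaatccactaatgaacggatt
GARS1: tttacgcggcgATTTCATCAtgctccgagc
The ASNS stretch is chr7:97872423-97872522 on the minus strand, with its match beginning 68 bases before the start. The AARS1 stretch is chr16:70289641-70289740, also on the minus strand, and its match begins 188 bases before the start. The GARS1 stretch is chr7:30594833-30594862 on the plus strand, with its match beginning 34 bases before the start. Another annotated start of GARS1 lies upstream of that one, so this match may lie within a longer transcript. The full CRE, TGACGTCA, was in none of the 7 and in 1.85% of promoters. A match describes letters in the window and shows no binding.

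Genes of plasma cell identity rose as well, 6 of 24 tested (27 in the list), and none fell, beside 0.537% and 0.306% of all genes. In all, 19 members (79.2%) had positive values, beside 54.0% of all genes, and the median was 0.09. The arrays stood apart with 48 h higher for 9 and with 48 h lower for 1, SDC1, beside 9.91% and 7.88% of all genes. IRF4, the factor on which myeloma cells depend, read 1088, 1027 and 1083 at 24 h and 1362, 1472 and 1393 at 48 h (0.40 ± 0.06, limma adjusted p = 6.1e-05). POU2AF1, a coactivator of octamer-binding factors in B-lineage cells, read 1798, 1800.3 and 1798 against 2489, 2555 and 2661 (0.51 ± 0.06, limma adjusted p = 6.45e-06). In both genes the gap between the times was wider than the spread within either, and both kept their calls with any 1 array left out. Taken as the mean of its probe sets, POU2AF1 was not called (limma adjusted p = 0.161), while IRF4 was.

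MAF, an oncogene of some myelomas, read 4709, 4264 and 4397 at 24 h and 6309, 5868 and 7106 at 48 h (0.52 ± 0.12, limma adjusted p = 0.0166). ITGB7, an integrin chain that MAF activates, rose by 0.39 ± 0.08, CD38, a surface enzyme and antibody target in myeloma, by 0.36 ± 0.09, and TNFRSF17 by 0.30 ± 0.06. None of these 4 overlapped between the times. Without 48 h replicate 3 the list had 2 calls in place of 6, since MAF, ITGB7, CD38 and TNFRSF17 then had adjusted p of 0.176, 0.0834, 0.278 and 0.0879 in limma. MAF also lost its call without 24 h replicate 2 or 3, and CD38 without 24 h replicate 1 or 3 or 48 h replicate 1. Taken as the mean of its probe sets, MAF was not called.

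Other plasma cell genes did not pass. SDC1, the surface proteoglycan CD138 that defines plasma cells, had the opposite sign, with 839.2 ± 57.9 at 24 h and 688 ± 49.1 at 48 h (SD, n = 3 each; -0.28 ± 0.12, limma adjusted p = 0.323); it was named after its values were seen. It had -0.24 ± 0.12 in the dosed control line and fell by 0.48 ± 0.12 in the BMI1-shRNA line (limma adjusted p = 0.664 and 0.0445). XBP1, the factor of the secretory programme, had 0.10 ± 0.08 and PRDM1, the repressor that ends the B cell programme, 0.07 ± 0.05 (limma adjusted p = 0.672 and 0.588). None of 14 earlier B cell genes tested was called, and their median was 0.17. They were dim, with a median signal of 27.7. All 5211 genes with a mean signal under 50 had a median of 0.09, or -0.02 after quantile normalization.

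Cholesterol genes on both sides of the balance were among the rises. In the synthesis and uptake list 3 of 20 tested rose and none fell, beside 0.537% and 0.306% of all genes, and the median was 0.13. Positive values numbered 14 (70%), beside 54.0% of all genes. INSIG1, which holds the SREBP complex in the endoplasmic reticulum and is itself an SREBP target, read 3581, 3414 and 3380.4 at 24 h and 4053, 4462 and 4533 at 48 h (0.33 ± 0.07, limma adjusted p = 0.00583). LSS, lanosterol synthase, rose by 0.33 ± 0.07 and TM7SF2, a sterol reductase, by 0.49 ± 0.11. All 3 stood apart between the times, and LSS lost its call as the mean of its probe sets. FDPS, the farnesyl diphosphate synthase, had 0.36 ± 0.09 and did not pass (adjusted p = 0.0514 in limma). The count was 0 without 48 h replicate 3 and 1 without 24 h replicate 1 or 2, and 0 when only the 6 arrays were fitted. Over the same interval in the dosed control line 15 of the 20 had positive values, with a median of 0.11 and 1 rise. In the undosed BMI1-shRNA line 8 had positive values, with a median of -0.06 and no call. The sterol motif CACCCCAC and a degenerate form of the sterol regulatory element, which can overlap it, were searched on both strands. They were in none of the promoters of INSIG1, LSS and TM7SF2 and in 2.79% and 1.92% of all.

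In the efflux list 2 of 6 rose, both direct LXR targets, beside 0.537% of all genes. ABCG1, a cholesterol exporter, read 157, 188 and 159 at 24 h and 241, 306 and 271 at 48 h (0.68 ± 0.12, limma adjusted p = 0.00116). MYLIP, a ubiquitin ligase that sends lipoprotein receptors for degradation, read 809, 835 and 811 against 1046, 1169.8 and 1089 (0.43 ± 0.07, limma adjusted p = 0.0013). Neither overlapped, and both kept their calls with any 1 array left out. The probe sets of MYLIP did not all have the same sign, and as their mean MYLIP was not called (limma adjusted p = 0.109). Outside the lists SCARB1, a receptor for high-density lipoprotein, rose by 0.30 ± 0.05 and ABCG2, a drug and urate exporter, by 0.36 ± 0.06. Both were named after their values were seen, and SCARB1 lost its call as the mean of its probe sets.

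**Figure D3:**
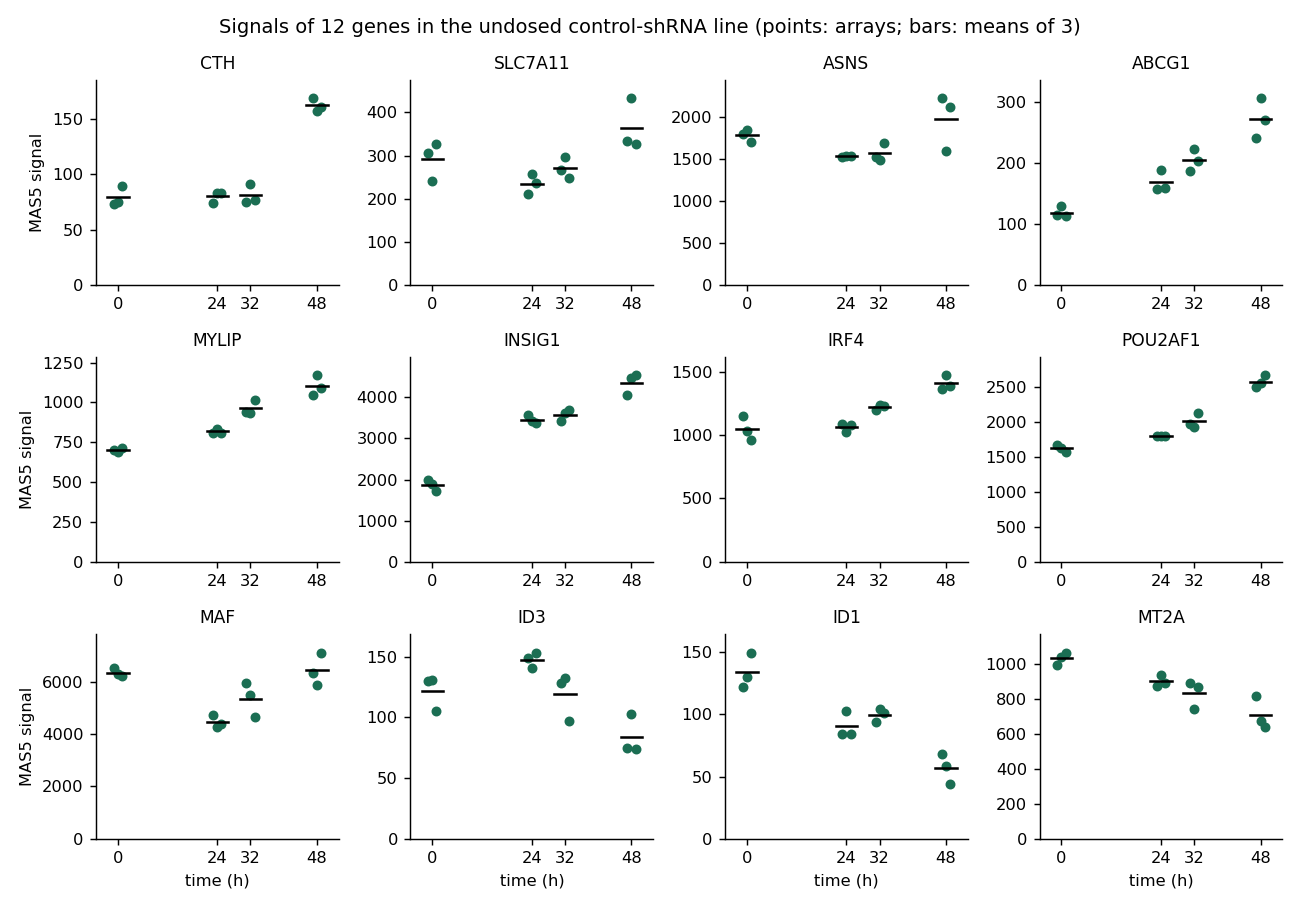
MAS5 signals (y axis, linear, starting at 0) of 12 genes in the undosed control-shRNA line at 0, 24, 32 and 48 h (x axis); points are arrays and bars the means of 3. The 48 h arrays stand above the 24 h arrays in the 9 rising genes and below them in ID3, ID1 and MT2A, and the 0 h levels differ in position from gene to gene.

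The other members of the 15 highest rises came from several families. ANXA1, a phospholipid-binding protein that restrains inflammation, read 31.2, 41.6 and 34.4 at 24 h and 57.9, 72.9 and 78.4 at 48 h (0.87 ± 0.12, limma adjusted p = 6.42e-05). LAT2, an adaptor of immune receptors, read 83.5, 100.2 and 88.7 against 152, 156 and 146 (0.71 ± 0.10, limma adjusted p = 4.49e-05). In neither did the groups overlap, which the choice of named genes required, and the ANXA1 signals were low. C3AR1, the receptor of complement fragment C3a, rose by 0.80 ± 0.14, QPRT, an enzyme of NAD synthesis from tryptophan, by 0.59 ± 0.10, and LTF, the iron-binding lactoferrin, by 0.75 ± 0.18. DCX, a microtubule-binding protein known from neurons, rose by 0.54 ± 0.13 and SYNGR3, a vesicle protein, by 0.58 ± 0.14. SH2D3C, an adaptor of integrin signalling, rose by 0.63 ± 0.14, TOP6BL, a protein of meiotic break formation, by 0.79 ± 0.19, MILR1, an immune receptor, by 0.66 ± 0.16 and RAB11FIP4, an effector of recycling endosomes, by 0.62 ± 0.16.

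Of these 11 genes ANXA1, LAT2, C3AR1 and QPRT kept their calls with any 1 array left out, though LAT2 lost its call as the mean of its probe sets. LTF had an adjusted p of 0.25 without 48 h replicate 3, DCX 0.201 without the same array, SH2D3C 0.131 and TOP6BL 0.29 without 24 h replicate 2, SYNGR3 0.236 without 24 h replicate 1, and MILR1 0.15 and RAB11FIP4 0.269 without 24 h replicate 3 (limma, their highest). The probe sets of RAB11FIP4 did not all have the same sign. DCX, TOP6BL and RAB11FIP4 lost their calls as the mean of their probe sets. MILR1, RAB11FIP4 and SYNGR3 lost theirs after quantile normalization (limma adjusted p = 0.102, 0.0704 and 0.0536).

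Several bright called genes lay outside the lists and were named after their values were seen. SPP1, the secreted phosphoprotein osteopontin, read 1378, 1342 and 1393 at 24 h and 1889, 1824 and 2007 at 48 h (0.47 ± 0.06, limma adjusted p = 1.14e-05). SAT1, the enzyme that starts polyamine breakdown, read 968, 935 and 950.3 against 1367, 1272 and 1213 (0.43 ± 0.06, limma adjusted p = 6.42e-05). ASS1, which makes argininosuccinate on the way to arginine, read 4495, 4367 and 4122 against 6002, 5356 and 5985 (0.42 ± 0.06, limma adjusted p = 6.1e-05). None of the 3 overlapped, and all kept their calls with any 1 array left out. Taken as the mean of its probe sets, SPP1 was not called (limma adjusted p = 0.192), while SAT1 and ASS1 were. The caveolins CAV2 and CAV1 rose by 0.47 ± 0.09 and 0.31 ± 0.05, and BCAT1, an enzyme of branched-chain amino acid breakdown, by 0.29 ± 0.05. Of these, CAV2 lost its call as the mean of its probe sets. PRSS2, PRSS3 and PRSS3P2 belong to a family of near-identical trypsinogen copies whose probe sets may share signal, so their rises of 0.45, 0.36 and 0.51 are uncertain as to gene.

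The deepest falls outside the dim genes were in the ID family, proteins that bind and disable basic helix-loop-helix transcription factors. ID3 read 149, 141 and 154 at 24 h and 75, 103 and 73.7 at 48 h, a log2 change of -0.79 ± 0.15 or 1.73-fold lower (limma adjusted p = 0.00304). ID1 read 84.1, 103 and 84 against 68, 58.3 and 44.4 (-0.63 ± 0.16, limma adjusted p = 0.0411). Neither overlapped between the times, which the choice of named genes required. They were the only 2 called of 12 tested in the TGF-beta and ID list, where the median was -0.10. Of all genes 0.306% fell. ID2 had 0.01 ± 0.06 (adjusted p = 0.979 in limma). ID3 kept its call with any 1 array left out, while ID1 had an adjusted p of 0.348 without 48 h replicate 3 and also lost its call without 48 h replicate 2 and without each 24 h array.

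Metallothioneins, small proteins that bind zinc and copper, gave 2 of the falls among 7 genes of that group tested, which included their regulator MTF1. The share of all genes that fell was 0.306%. MT2A read 874, 938 and 893 at 24 h and 816, 674 and 639.7 at 48 h (-0.35 ± 0.08, limma adjusted p = 0.0195), and MT1H fell by 1.36-fold (-0.44 ± 0.11, limma adjusted p = 0.0488). Both stood apart, with 48 h lower. The MT1 genes are near-identical copies, so the signal credited to MT1H is uncertain as to gene. Without 48 h replicate 3 the adjusted p was 0.246 for MT2A and 0.361 for MT1H in limma. MT1H also lost its call after quantile normalization (limma adjusted p = 0.0553) and as the mean of its probe sets. No zinc transporter of 10 was called.

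Cell cycle genes that passed were all lower. In the list of G1/S and DNA replication genes 0 of 53 rose and 3 fell, beside 0.537% and 0.306% of all genes, with a median of -0.04. E2F3, a factor that drives entry into S phase, read 803, 776 and 804 at 24 h and 658, 649 and 656 at 48 h (-0.28 ± 0.06, limma adjusted p = 0.0249). E2F8, a repressor of the same family, read 859.9, 833 and 780.5 against 669.5, 672 and 670.2 (-0.29 ± 0.07, limma adjusted p = 0.0176). Neither overlapped, and the 3 arrays of 48 h lay close together in each. DSCC1, part of a loader of the replication clamp, changed by -0.38 ± 0.08. In the G2/M and mitosis list 1 of 58 was called, SPC25, a kinetochore subunit, at -0.45 ± 0.11, and the median was 0.02. That list was not level in between: its median was 0.13 from 24 h to 32 h and -0.13 from 32 h to 48 h. The same medians over all genes were -0.01 and 0.02. On the single 32 h arrays the list's medians were 0.15, 0.11 and 0.13 above the 24 h mean. E2F3 lost its call whichever of the 6 arrays was left out (adjusted p up to 0.115), SPC25 without 5 of them, E2F8 without 24 h replicate 1 or 2 or 48 h replicate 3, and DSCC1 without 24 h replicate 3 or 48 h replicate 3. Taken as the mean of its probe sets, E2F3 was not called either.

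The E2F motif TTCCCGCC, searched on both strands, was in the promoter entry of E2F3, the only 1 of the 3 falling G1/S genes with an entry. It was in 12 of 44 tested list members with an entry, in 3.79% of genes and in 3.16% of promoters. Another 2 E2F motifs were searched in the same way, TTTGGCGC and TTTCGCGC, and neither was in the E2F3 entry; they were in 9 and 6 of the 44 and in 0.795% and 0.63% of genes. The stretch is printed with the match, on the other strand, in capitals.
E2F3: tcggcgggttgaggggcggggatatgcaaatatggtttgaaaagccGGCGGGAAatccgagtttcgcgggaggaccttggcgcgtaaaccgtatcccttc
It is chr6:20401779-20401878 (GRCh38.p14, RefSeq) on the plus strand, and the match begins 54 bases before the start.

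General markers of proliferation did not pass. MKI67, the Ki-67 antigen of cycling cells, read 331, 318 and 344 at 24 h and 284, 381 and 335 at 48 h (0.00 ± 0.10). PCNA, the replication clamp, had 0.09 ± 0.07, and CCND2, the cyclin of G1, -0.03 ± 0.08. MKI67 and CCND2 overlapped between the times, and PCNA did not. None of 7 CDK inhibitors was called: CDKN1A had -0.00 ± 0.17, CDKN1B -0.05 ± 0.05 and CDKN2A 0.22 ± 0.07. CDKN2A, the gene known for its repression by BMI1, read 2186, 2077 and 2070.2 against 2597, 2285 and 2512 (limma adjusted p = 0.116). CDKN2A passed after quantile normalization, at 0.23 (limma adjusted p = 0.00363, the lowest of a range up to 0.395 over its alternatives).

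The remaining members of the 15 deepest falls came from several families. LRP11, a receptor-like membrane protein, read 139.6, 127 and 153 at 24 h and 113, 88 and 71.7 at 48 h (-0.61 ± 0.14). ZNRF3, a ubiquitin ligase that removes Wnt receptors, read 234, 229 and 252 against 164, 182 and 146 (-0.53 ± 0.10, limma adjusted p = 0.0031), and RUNX3, a lymphoid transcription factor, 390.0, 428 and 401 against 280.0, 292 and 325 (-0.44 ± 0.09). Neither of these pairs overlapped, which the choice of named genes required. LTV1, a factor of small ribosomal subunit assembly, changed by -0.43 ± 0.11, MANEAL, a mannosidase-like protein, by -0.42 ± 0.08, and DNLZ, a helper of mitochondrial Hsp70, by -0.40 ± 0.06. ZNF326, a zinc finger protein, changed by -0.38 ± 0.09, the small protein C11orf58 by -0.37 ± 0.09, the channel PANX1 by -0.37 ± 0.06 and the nuclear pore protein NUP98 by -0.36 ± 0.07. DNLZ and PANX1 kept their calls with any 1 array left out. PANX1, MANEAL, LTV1, RUNX3, NUP98, ZNF326 and C11orf58 lost theirs as the mean of their probe sets. LTV1 also lost its call after quantile normalization (limma adjusted p = 0.0542). Without 48 h replicate 3 the limma adjusted p was 0.274 for LRP11, 0.0678 for ZNRF3, 0.294 for LTV1, 0.0678 for MANEAL, 0.165 for ZNF326, 0.308 for C11orf58 and 0.0834 for NUP98, and RUNX3 had 0.089 without 24 h replicate 2.

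Cytosolic ribosomal protein genes had no call but positive values throughout. All 29 tested had positive values, beside 54.0% of all genes, and their median was 0.26. Of the 29, 27 stood apart with 48 h higher, beside 9.91% of all genes. The medians of the single 48 h arrays were 0.23, 0.16 and 0.39 above the 24 h mean, those of the 24 h arrays 0.08, -0.05 and -0.02, and those of the 0 h arrays 0.24, 0.25 and 0.22. Their median signal was 11041, and after quantile normalization their median was 0.01. In the dosed control line it was 0.05 and in the BMI1-shRNA line -0.01.

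Stress and metabolic lists had few calls, and 0.843% of all genes were called. In the unfolded protein response 1 of 28 rose, EDEM1, which sends misfolded glycoproteins to degradation (0.34 ± 0.06, limma adjusted p = 0.00358), while HSPA5, the chaperone BiP, had 0.14 ± 0.08, or -0.05 after quantile normalization. In glycolysis and hypoxia 1 of 37 rose, the mitophagy receptor BNIP3L (0.29 ± 0.06). TXNIP, an inhibitor of glucose uptake induced by glucose, rose alone of 24 glucose-sensing and FOXO genes, from 1189.6, 1233 and 1157 to 1419, 1343 and 1362 (0.20 ± 0.05, limma adjusted p = 0.0423). MYC rose from 6341, 5697 and 6002 to 7587, 7322 and 8430.3 (0.37 ± 0.09, limma adjusted p = 0.0481), alone among 36 genes of the MYC and ribosome biogenesis list, whose median was -0.03. PSMC6, an ATPase of the proteasome, changed by -0.22 ± 0.06, alone of 27. The 48 h arrays did not overlap the 24 h arrays in any of the 5 called genes. EDEM1 kept its call with any 1 array left out, MYC and TXNIP lost theirs whichever of the 6 was left out, BNIP3L without 24 h replicate 3 or 48 h replicate 1, and PSMC6 without each array but 48 h replicate 2. As the mean of their probe sets MYC, TXNIP and BNIP3L were not called. PSMC6 lost its call after quantile normalization (limma adjusted p = 0.091).

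No member was called in the lists for oxidative phosphorylation (46 tested), the mitochondrial ribosome (32), lysosome and autophagy (36), Polycomb subunits (27), interferon-stimulated genes (30), p53 targets (18), NF-kB targets (17), heat shock proteins (12) or fatty acid synthesis (11). The share called over all genes was 0.843%. Among survival genes, BCL2L11, the pro-apoptotic protein BIM, had 0.02 ± 0.08 and MCL1, its anti-apoptotic partner, -0.07 ± 0.06, and neither stood apart between the times.

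**Figure D4:**
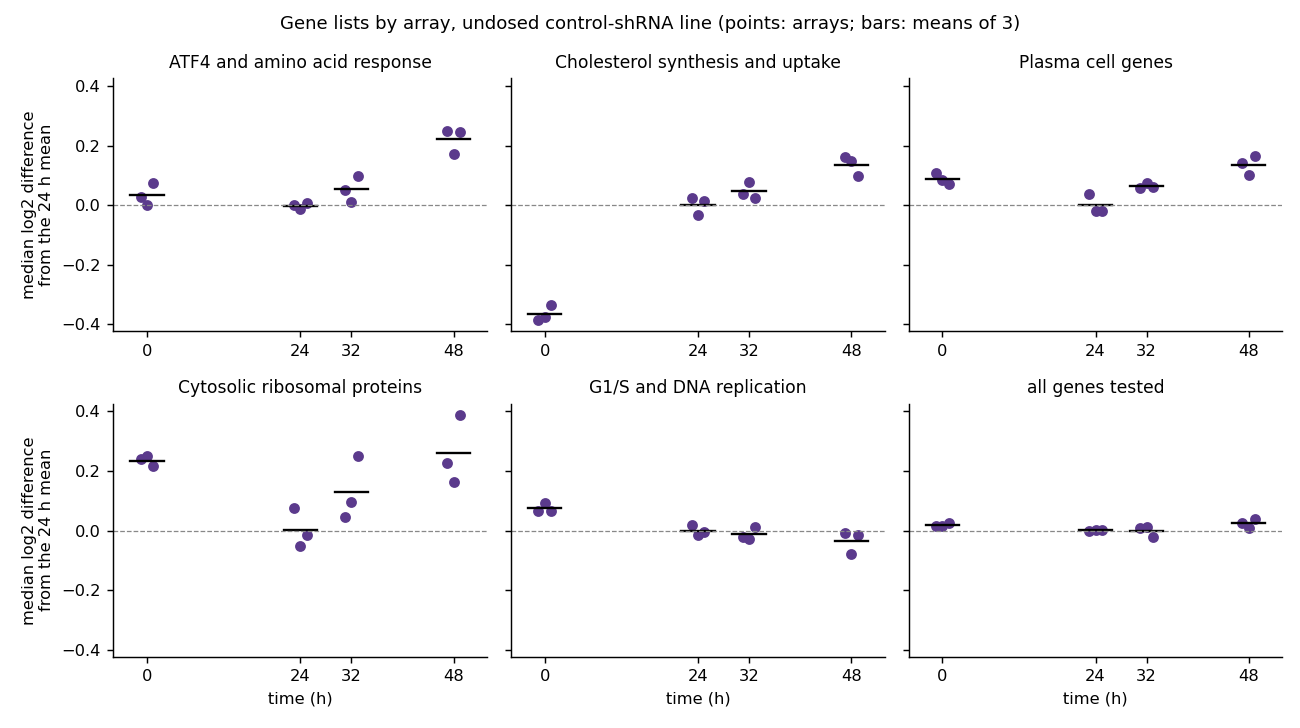
For 5 gene lists and all genes tested, each point is the median over the list of an array's log2 difference from the 24 h mean (y axis), by time (x axis), in the undosed control-shRNA line; bars are means of 3. The ATF4 list sits at 0.17 to 0.25 on the 48 h arrays and between -0.01 and 0.10 on all others, while the ribosomal protein arrays of 0 h lie within the range of those of 48 h.

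At 32 h most of the called genes had values between those of 24 h and 48 h. No gene was called between 24 h and 32 h (0%; 815, or 5.54%, at an unadjusted p under 0.05 in limma, and 3 adjusted when only those arrays were fitted), and 42 were called between 32 h and 48 h (0.286%). Before adjustment, p was under 0.05 for 1387 genes (9.43%) in limma. Of the 42, 27 were higher at 48 h (0.184%) and 15 lower (0.102%). That second count ran from 15 to 40 as single arrays were left out, 15 of them without 48 h replicate 3 and 20, 21 and 21 without 32 h replicates 1, 2 and 3. For 115 of the 124 genes (92.7%) the 32 h mean lay between the 24 h and 48 h means, against 39.6% of all genes. Called genes were picked for their gap between 24 h and 48 h, which favours a mean inside it, so these shares are not alike. The step from 24 h to 32 h was the smaller in 98 of the 124, and in 8007 of all 14704 genes. These comparisons share arrays, so the values stand side by side only. From 32 h to 48 h CTH changed by 0.96 ± 0.16, LTF by 0.79 ± 0.18 and ANXA1 by 0.77 ± 0.12, the 3 highest of sufficient signal, and ID1 by -0.77 ± 0.16, BAG3, a co-chaperone of Hsp70, by -0.53 ± 0.11 and DDX5, an RNA helicase, by -0.46 ± 0.10, the 3 lowest. IRF4 had means of 1066, 1225 and 1409 at 24, 32 and 48 h. CTH had 80.1, 81.1 and 163.

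At 0 h the genes did not share a level. MAF read 6334 at 0 h, 4457 at 24 h and 6428 at 48 h, MYC 7774, 6013 and 7779.6, and TXNIP 1972, 1193 and 1374. For these 3 genes the mean at 24 h was below that at 0 h. INSIG1 read 1871, 3458 and 4349.5, and ABCG1 118, 168 and 273, each higher at every later time. ID1 read 134, 90.4 and 56.9, lower at each of these times. The cholesterol list had array medians of -0.39, -0.37 and -0.34 at 0 h and 0.16, 0.15 and 0.10 at 48 h, relative to 24 h.

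The same interval was measured in control-line arrays with doxycycline, which share no array with the comparison described. There 47 genes were called (0.32%), 36 up (0.245%) and 11 down (0.0748%), beside 1173 (7.98%) at an unadjusted p under 0.05 in limma; the count ran from 25 to 31 with any 1 of its 6 arrays left out. Of the 124 genes 118 (95.2%) had the same sign, against 58.3% of all genes. Shared calls numbered 23 rises, 29.1% of the 79 and 63.9% of the 36, and 5 falls, 11.1% of the 45 and 45.5% of the 11, with 0 in opposite directions. CTH read 79.2, 90.0 and 89.7 at 24 h and 174, 174 and 186 at 48 h (1.00 ± 0.16, limma adjusted p = 0.000563), IRF4 had 0.34 ± 0.06 (limma adjusted p = 0.000563), POU2AF1 0.43 ± 0.06, INSIG1 0.37 ± 0.07, ABCG1 0.64 ± 0.12 and ID1 -0.74 ± 0.16, all called. The CTH arrays of the 2 times did not overlap here either. MAF, at 0.05 ± 0.12, was not called (limma adjusted p = 0.969).

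In the dosed control line 5 of the 38 ATF4 genes rose and none fell, with a median of 0.16: CTH, PHGDH, ASNS and AARS1 were 4 that rose in both. The 3 highest of sufficient signal were CTH, the long noncoding RNA LINC00996 (0.73 ± 0.17) and SH2D3C (0.64 ± 0.14), and the 3 lowest were ID1, the steroid sulfatase STS (-0.47 ± 0.06) and RRP9, a protein of ribosomal RNA processing (-0.43 ± 0.10). The difference between the undosed and dosed changes was called for no gene (0%) by limma, with 679 at an unadjusted p under 0.05 (4.62%); leaving out single arrays gave at most 1. A mean of undosed and dosed arrays, 6 against 6 and chosen after seeing the data, called 319 genes, 105 of them among the 124, and 16 of the ATF4 list rose.

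**Figure D5:**
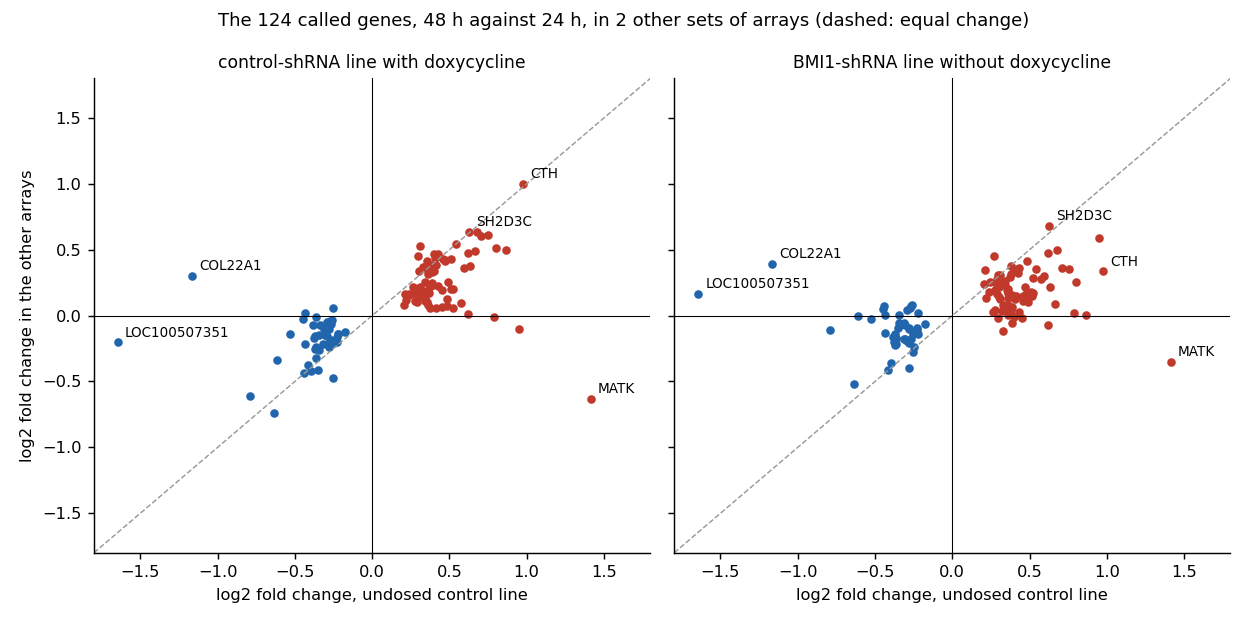
Log2 fold changes from 24 h to 48 h of the 124 called genes: the undosed control line is on the x axis, and the dosed control line (left) or the undosed BMI1-shRNA line (right) on the y axis, with rises in red, falls in blue and a dashed line of equal change. In the dosed arrays 118 of the 124 have the same sign, in the BMI1-shRNA line 106, and the dim genes MATK, COL22A1 and LOC100507351 lie far off the line.

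The BMI1-shRNA line without doxycycline had 141 calls over the same interval (0.959%), 79 up (0.537%) and 62 down (0.422%), beside 1975 (13.4%) at an unadjusted p under 0.05 in limma, and 43 to 79 with any 1 of its 6 arrays left out. Of the 124 genes 106 (85.5%) had the same sign there, against 56.4% of all genes. Shared calls were 15 rises, 19.0% of each list of 79, and 5 falls, 11.1% of the 45 and 8.06% of the 62, with 0 opposite. ABCG1 (0.50 ± 0.12), MYLIP (0.32 ± 0.07), SAT1 (0.36 ± 0.06), ASS1 (0.35 ± 0.06), CAV1, SH2D3C, DNLZ (-0.36 ± 0.06) and MANEAL (-0.41 ± 0.08) were the 8 genes called in all 3 sets of arrays. Each had the same direction in both lines. In the undosed control line MYLIP and MANEAL lost their calls as the mean of their probe sets.

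Several plasma cell and amino acid genes were not called in that line. IRF4 read 1273, 1346 and 1431 at 24 h and 1336, 1338 and 1349 at 48 h (-0.01 ± 0.06, limma adjusted p = 0.973), with the times overlapping. TNFRSF17 had -0.01 ± 0.06, POU2AF1 0.18 ± 0.06, CTH 0.34 ± 0.16 and ID3 -0.11 ± 0.15, none called. The ATF4 list had 2 rises and 1 fall with a median of 0.10. The difference of the changes between the lines was called for no gene (0%; 1204 at an unadjusted p under 0.05 in limma, 8.19%). For IRF4 that difference was 0.41 ± 0.08 (limma adjusted p = 0.0695, unadjusted p = 1.03e-05) and for CTH 0.64 ± 0.23 (adjusted p = 0.452 in limma), so neither is shown to differ. With a gene taken as the mean of its probe sets 6 genes passed that test, and 2 when only the 12 arrays were fitted. The 3 highest of sufficient signal in the BMI1-shRNA line were the kinase CAMKK2 (0.99 ± 0.17), the peroxisomal reductase DECR2 (0.97 ± 0.17) and the atypical cyclin CCNG2 (0.84 ± 0.14), and the 3 lowest were LANCL2 (-0.57 ± 0.14), ARHGAP11A (-0.55 ± 0.13) and DDX5 (-0.50 ± 0.10).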

How the data were processed

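Total RNA was labelled with biotin and hybridized, 1 array per sample, per the labels' protocols. The values were produced with MAS5, per the submitters' processing notes; its version is not given in the sources used here. The deposited unit is linear intensity per probe set, and with 2% trimmed from either end all arrays had means of 150.02 to 150.03. Arrays have no read depth, and 3 per group limits the precision.

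The 54675 probe sets, without 62 controls, were filtered to the 35232 that reached the array's own median on 3 or more of 42 arrays; 41091 had a single gene symbol in the platform annotation, 1801 several and 11721 none. The brightest retained probe set stood for each of 14704 genes. Values were log2(signal + 5.4), 5.4 being the 25th percentile. A model with 14 group means was fitted in limma 3.58.1 (R 4.3.3; eBayes with trend, 28 residual degrees of freedom), two-sided, with Benjamini-Hochberg adjustment, and was tested on simulated data. The BMI1-shRNA arrays at 0 h carry conflicting labels and entered only the shared estimate of spread.

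Named genes are the 15 highest and 15 lowest called changes with groups apart and a mean signal of at least 50, called members of 38 lists (903 symbols, 780 tested) or up to 4 uncalled members with the largest change, a fixed set always given, of which a few are not analysed here, and the 3 highest and lowest in other comparisons. Members and lists were chosen with earlier results of these data known. Alternatives were a pseudocount of 1, quantile normalization, no filter, averaged probe sets per gene, only the groups compared, a replicate block and leaving out each array.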

Additional observations from a re-analysis of the deposited data

How the results depend on the processing

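The 124 calls of 48 h against 24 h stayed within 1.5 times under a pseudocount of 1 (126), quantile normalization (153, 110 shared), no filter (94), averaged probe sets (103) and the replicate block (126, 119 shared), and fell to 10 when only the 6 arrays were fitted, with 8 shared. The mean of undosed and dosed arrays, chosen after seeing the data, gave 319. With only the groups compared, the counts were 3 for 32 h against 24 h, 2 for 48 h against 32 h, 10 for the dosed control line, 33 for the BMI1-shRNA line and 2 for the difference between the lines. Quantile normalization gave 68 for 48 h against 32 h, and the mean of probe sets gave 6 for the difference between the lines; the cause was not tested. Leaving out single arrays gave 36 to 113, 0 to 1, 15 to 40, 25 to 31, 43 to 79, 0 to 1 and 0 to 1 for 48 h against 24 h, 32 h against 24 h, 48 h against 32 h, the dosed line, the BMI1-shRNA line, the difference between the lines and the difference with doxycycline. Of the 124 genes 4, CTH, QPRT, SAT1 and IRF4, kept their call under all alternatives listed with the methods. CHCHD3, called at -0.23, had 0.19 as the mean of its probe sets, and 14 of 75 called genes with several probe sets had probe sets of differing sign. Among uncalled genes HSPA5 was -0.048 after quantile normalization and CDKN1A 0.039 in the mean of undosed and dosed arrays; with single arrays left out BCL2L11 ran from -0.030 to 0.095, MKI67 from -0.099 to 0.11, CDKN1A from -0.072 to 0.098 and CCND2 from -0.075 to 0.018. Arrays were not paired by replicate number, since their residuals from group means had correlations of 0.02, -0.04 and 0.02 between 24 h and 48 h arrays of the same number, and 1 of 3 arrays of 24 h correlated best with its own number. The replicate block gave 40, 48 and 138 calls for 48 h against 32 h, the dosed line and the BMI1-shRNA line and 0 for the other 3 comparisons.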
